A study of Mus musculus with 9 samples.

Results

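The genes of the cholinergic synapse were followed in mouse brain RNA after cerebral venous sinus thrombosis (CVST). They were 10 genes taken by symbol from the 20731 rows of the count file. The rule uses no measured value, though the set was proposed with earlier results of these data known. Chat, Slc18a3 and Slc5a7 serve acetylcholine synthesis and transport, Ache its breakdown, Chrna4, Chrnb2 and Chrna7 encode nicotinic receptor subunits, and Chrm1, Chrm2 and Chrm4 encode muscarinic receptors. All 10 were among the 14746 genes with enough counts to be tested.

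The 9 libraries came from male C57BL/6J mice of 8 to 10 weeks, 3 separate mice per group, all sampled on day 2. All 9 mice had thrombosis of the superior sagittal sinus induced with a thread soaked in ferric chloride, and no sham library was analysed here. The CVST group had the thrombosis alone. In the CVST+Ligation group, ligation of the deep cervical lymph nodes on both sides was added, which limits lymphatic drainage of the meninges. The 4-PBA group had thrombosis, the same ligation and 4-phenylbutyric acid, a chemical chaperone that eases endoplasmic reticulum stress, injected into the peritoneum. The study's methods place the injection before modelling and the series' design text places it after ligation. The labels name the tissue as brain and the design text names it as cortex. Libraries held 18100739 to 25091498 counts on genes. Values are given as CPM, counts relative to library size after scaling by the trimmed mean of M-values (TMM), and 3 counts, the upper limit that a count of 0 allows, came to 0.114 to 0.163 CPM.

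Acetylcholine is made from choline and acetyl-CoA by choline acetyltransferase in a small set of neurons, among them large striatal interneurons, projection neurons of the basal forebrain, brainstem nuclei and motor neurons. It is loaded into vesicles, released, cut by acetylcholinesterase in the synaptic cleft, and its choline is taken back up into the terminal. Nicotinic receptors are ion channels built of several subunits, whereas muscarinic receptors signal through G proteins and are carried by many neurons that make no acetylcholine.

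The region markers set limits on what a group stands for. CVST+Ligation 2 had a summed level of 6 cerebellar markers of 1340 CPM against 22.9 to 63.7 CPM in the other 8 libraries, and of 7 brainstem markers of 184.8 CPM against 1.22 to 6.78 CPM. In 4-PBA 2, 5 genes of sensory ganglion neurons (Scn10a, Trpv1, P2rx3, Mrgprd and Avil), a list chosen after its values were seen, summed to 326.7 CPM against 2.51 to 6.34 CPM elsewhere. Markers of striatal projection neurons summed to 1075 to 1934 CPM in CVST, 229 to 537 CPM in CVST+Ligation and 269 to 1361 CPM in 4-PBA, and all 10 of them were lower in CVST+Ligation than in CVST at the unadjusted threshold of 0.05, at which 9.64% of all genes were called in either direction. Markers of cortical excitatory neurons summed to 2161 to 2422, 617 to 1781 and 694 to 987 CPM in the same order. Those of neurons in general summed to 2718 to 3836, 2679 to 3256 and 2189 to 2507 CPM. Oligodendrocyte markers summed to 1682 to 2204, 1786 to 3896 and 2903 to 4962 CPM. Hypothalamic markers summed to 281 to 478 CPM in 4-PBA and to at most 21.3 CPM elsewhere. With genes split into 4 equal bins by exon length, the shortest bin of CVST 3 departed from each gene's median library by a median of 0.23 and the longest bin by -0.23 on the log2 scale, against -0.10 to 0.12 in the other 8 libraries. The part of these differences in the results was not tested.

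Chat, which encodes choline acetyltransferase, and Slc18a3, which encodes the vesicular acetylcholine transporter, share a locus on chromosome 14 (GRCm38, GENCODE M21). Chat spans chr14:32408203-32465989 on the minus strand. Slc18a3, at chr14:32462438-32464850, lies inside it on the same strand with 0 shared exon bases, and the RefSeq starts are 1059 bases apart. Slc5a7, the high-affinity choline transporter, lies alone at chr17:54273590-54299034 on the minus strand. The sequences before the 3 starts are shown because the 3 genes varied together across the libraries. They run 5′ to 3′ on the minus strand, from RefSeq (GRCm38.p6), and cover chr14:32465990-32466159 for Chat (up to its first annotated exon base), chr14:32464851-32465100 for Slc18a3 and chr17:54299035-54299284 for Slc5a7. Capitals mark matches on either strand to the motifs searched.
Chat: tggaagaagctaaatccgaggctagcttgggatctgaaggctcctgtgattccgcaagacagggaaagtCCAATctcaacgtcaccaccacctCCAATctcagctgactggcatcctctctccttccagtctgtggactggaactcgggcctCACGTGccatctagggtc
Slc18a3: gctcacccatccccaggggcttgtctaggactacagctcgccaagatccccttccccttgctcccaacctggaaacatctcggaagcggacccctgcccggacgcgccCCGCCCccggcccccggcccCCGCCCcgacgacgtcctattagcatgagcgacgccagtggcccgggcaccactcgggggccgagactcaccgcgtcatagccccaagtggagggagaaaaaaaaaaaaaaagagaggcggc
Slc5a7: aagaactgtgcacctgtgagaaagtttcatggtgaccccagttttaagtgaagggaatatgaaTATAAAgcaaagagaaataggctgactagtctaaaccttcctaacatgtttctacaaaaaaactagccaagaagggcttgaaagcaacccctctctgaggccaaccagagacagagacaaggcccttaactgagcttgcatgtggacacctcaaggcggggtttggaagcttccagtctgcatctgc
The motifs searched on both strands were TATAAA (the TATA box), GGGCGG (the GC box), TAATTA (a homeodomain core, in 4.84% of all promoters), TGACGTCA (the cAMP response element, in 1.55%), CACGTG (the E-box) and CCAAT (the CCAAT box). Chat held 1 CACGTG and 2 CCAAT, which 3.38% and 23.3% of all 32851 promoters held in the same 170 bases. Slc18a3 held 2 GGGCGG, present in 32.7% of promoters over 250 bases, and Slc5a7 held 1 TATAAA, present in 12.4%. The TATAAA of Slc5a7 lies in the upstream part of its window, away from the start. Use of the matched motifs was not tested. No motif was found in more than 1 of the 3 windows, and of the Slc18a3 window 59 bases are also exon of the antisense gene Gm2990. Their GC content was 54.7%, 66.0% and 45.6%, against a median of 52.4% for all promoters over 250 bases.

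Between CVST+Ligation and CVST, which asks what ligation adds to the thrombosis, 2 of the 10 genes were called, that is, passed the unadjusted threshold of 0.05 in edgeR's quasi-likelihood test: Chrna4 higher and Chrm4 lower. Of all genes tested 9.64% were called in that comparison. The median log2 difference was 0.36 over the 10 genes and 0.0021 over all genes. Between 4-PBA and CVST+Ligation, which asks what the inhibitor changes, 0 of the 10 were called by edgeR's quasi-likelihood test at the unadjusted threshold and 0 by DESeq2, against 3.23% of all genes with edgeR, and the median was 0.071 against -0.017. Without CVST+Ligation 2 the same comparison called 5 of them, Chat, Slc18a3, Slc5a7 and Ache higher and Chrm1 lower, while the calls over all genes went from 476 of 14746 to 1497 of 14950. In 4-PBA against CVST, 3 of the 10 were called, Ache and Chrnb2 higher and Chrm4 lower, against 15.4% of all genes, and the median was 0.59 against -0.0084.

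After Benjamini-Hochberg adjustment over all genes, edgeR called 0 of the 10 in each of the 3 comparisons, and DESeq2 also called 0. The background was 0.0203% of genes for CVST+Ligation over CVST, 0% for 4-PBA over CVST+Ligation and 0.122% for 4-PBA over CVST. The smallest adjusted p of a member was 0.456, 1.0 and 0.185 in that order. Groups did not overlap for 2, 0 and 4 of the 10, against 13.8%, 7.73% and 23.7% of all genes. The 4 in the comparison of 4-PBA with CVST were Ache, Chrnb2, Chrm1 and Chrm4.

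**Figure D1:**
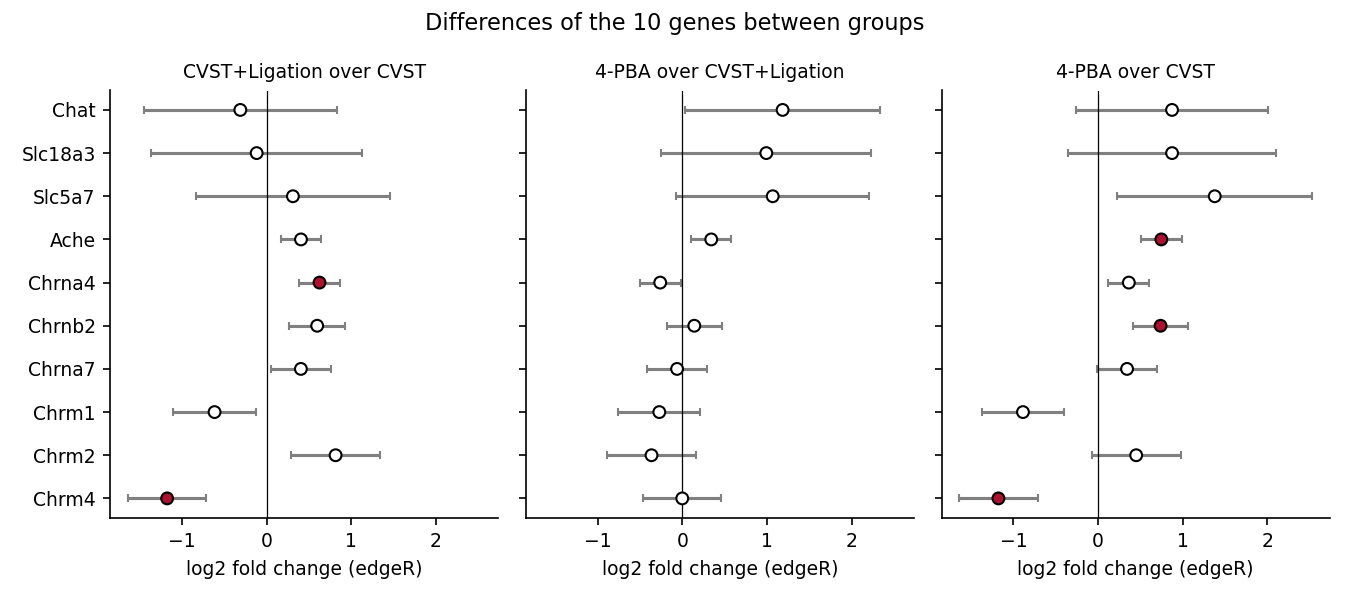
log2 fold change (x axes) of the 10 genes (y axis) in the 3 comparisons, with bars of 1 SE from edgeR. Filled points passed the unadjusted threshold of 0.05: Chrna4 and Chrm4 on the left, none in the middle, and Ache, Chrnb2 and Chrm4 on the right, while the bars of Chat, Slc18a3 and Slc5a7 are the widest.

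The 3 synthesis and transport genes varied more between mice of a group than between groups. Chat stood at 7.39, 4.17 and 0.977 CPM in CVST 1, 2 and 3, at 0.248, 8.92 and 1.10 CPM in CVST+Ligation 1, 2 and 3, and at 12.5, 9.17 and 1.56 CPM in 4-PBA 1, 2 and 3. Slc18a3 stood at 2.68, 2.00 and 0.705 CPM in CVST, at 0, 4.48 and 0.571 CPM in CVST+Ligation, and at 5.42, 4.00 and 0.572 CPM in 4-PBA. Slc5a7 stood at 4.04, 1.60 and 0.977 CPM in CVST, at 0.248, 7.16 and 0.923 CPM in CVST+Ligation, and at 8.995, 7.70 and 0.686 CPM in 4-PBA. Each group held at least 1 high and 1 low library, and the 3 groups overlapped for each gene. CVST+Ligation 1 was lowest for all 3, with 6 counts of Chat, 0 of Slc18a3 and 6 of Slc5a7, and 4-PBA 1 was highest in CPM for all 3, with 230, 100 and 166 counts. In bulk tissue, fewer cholinergic cells and less RNA per cell cannot be told apart.

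**Figure D2:**
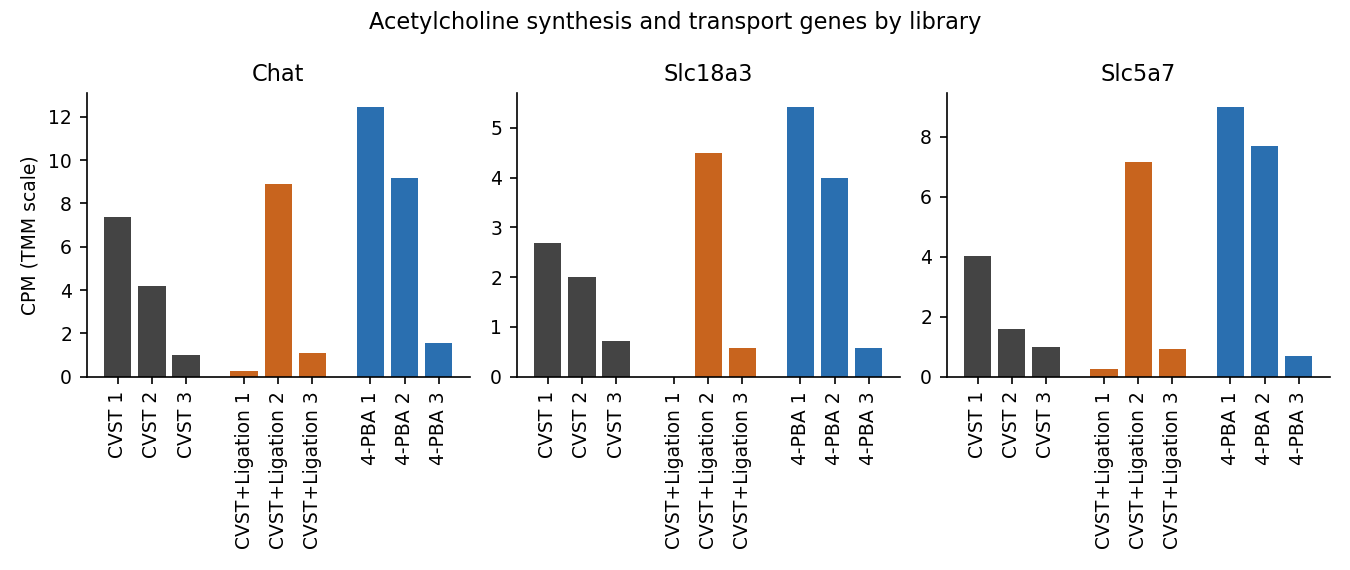
CPM of Chat, Slc18a3 and Slc5a7 (y axes, from 0) in each of the 9 libraries (x axes), coloured by group, 1 bar per mouse. CVST+Ligation 2, 4-PBA 1 and 4-PBA 2 carry the 3 highest bars for each gene, and Slc18a3 is at 0 in CVST+Ligation 1.

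The coefficient of variation over the 9 libraries was 87.7% for Chat, 87.3% for Slc18a3 and 96.8% for Slc5a7. The median gene had 21.8%, and 96.6% to 97.6% of tested genes had a lower value than these 3. Chat differed 50.3-fold between its lowest and highest library and Slc5a7 36.3-fold.

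None of the 3 genes was called between groups. On the log2 scale, Chat differed by -0.31 ± 1.14 (SE) between CVST+Ligation and CVST, by 1.18 ± 1.15 between 4-PBA and CVST+Ligation, and by 0.87 ± 1.13 between 4-PBA and CVST. The adjusted p-values of the 3 genes ran from 0.618 to 1.0 over the 3 comparisons (edgeR's quasi-likelihood test, Benjamini-Hochberg over all genes tested). The comparisons with CVST+Ligation turned on CVST+Ligation 2. Without that library, 4-PBA was above CVST+Ligation by 3.52 for Chat, 3.54 for Slc18a3 and 3.31 for Slc5a7 on the log2 scale, all 3 past the unadjusted threshold. Against CVST, CVST+Ligation without it differed by -2.64 for Chat, past that threshold, and by -2.66 for Slc18a3 and -1.92 for Slc5a7, neither past it.

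The 3 genes were high or low together from mouse to mouse. Over the 9 libraries, log2 CPM of Chat and Slc18a3 had a Pearson r of 0.952 (adjusted p = 0.000174) and a Spearman rho of 0.933 (adjusted p = 0.0015), by exact permutation tests, two-sided and adjusted over 6 pairs. Chat and Slc5a7 had r = 0.965 (adjusted p = 0.000215) and rho = 0.933 (adjusted p = 0.0015) in the same exact permutation tests. Slc18a3 and Slc5a7 had r = 0.917 (adjusted p = 6.61e-05) and rho = 0.967 (adjusted p = 0.000992), again by exact permutation. The raw p-values of r for the 3 pairs were 5.79e-05, 0.000107 and 1.1e-05, and those of rho 0.00075, 0.00075 and 0.000165 (exact permutation). Without the 2 libraries farthest from the median of the first gene, r was 0.988, 0.956 and 0.972. Within groups, as deviations from the group means, r was 0.945, 0.967 and 0.926. Of all 14746 genes tested, Slc5a7 and Slc18a3 were the 2 most like Chat, followed by Hbs1l at r = 0.947. The genes closest to Slc18a3 after Chat were Hbs1l (0.94) and Map3k21 (0.927), and those closest to Slc5a7 after Chat were Tpm2 (0.956) and Chst3 (0.942). These are descriptions over 9 libraries, in which all genes of a library share its depth and its make-up of brain regions.

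**Figure D3:**
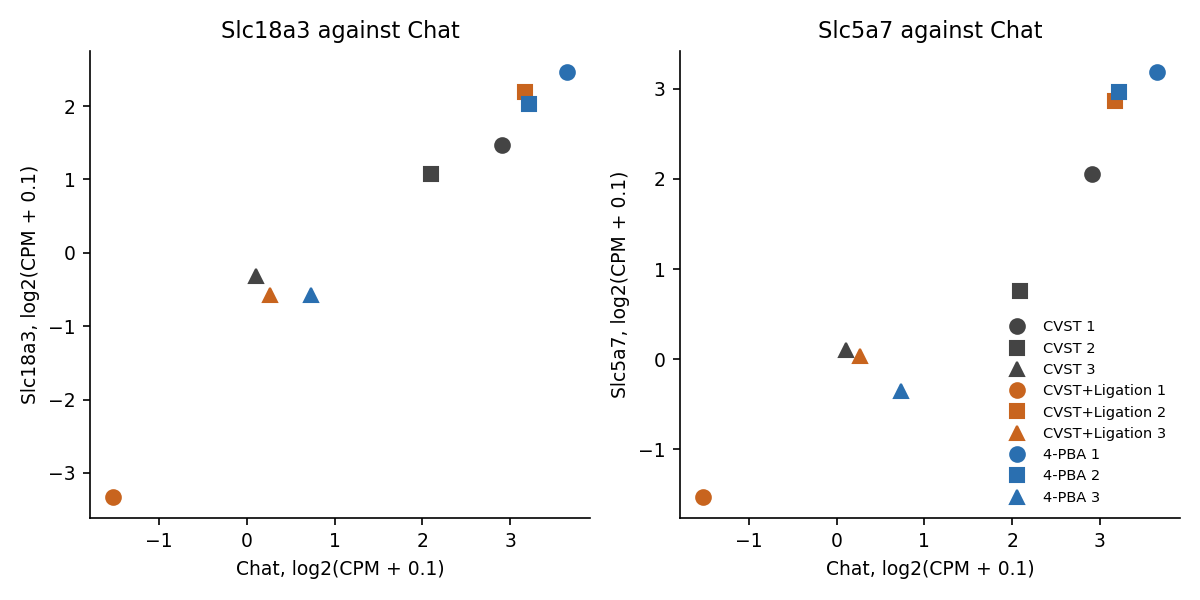
log2(CPM + 0.1) of Slc18a3 (left) and Slc5a7 (right) against that of Chat, 1 point per library, coloured by group and shaped by replicate number. The points of the 3 groups are mixed along 1 rising line, and CVST+Ligation 1 is the lowest point in both panels.

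Genes that mark cholinergic neurons were read from a further list. Lhx8 and Gbx1, which encode transcription factors of forebrain cholinergic neurons, followed Chat only in part. Lhx8 stood at 1.06, 1.55 and 0.922 CPM in CVST, at 0, 0 and 0.484 CPM in CVST+Ligation, and at 7.59, 7.03 and 0 CPM in 4-PBA. Gbx1 stood at 0.722, 0.177 and 0 CPM in CVST, at 0, 0 and 0.176 CPM in CVST+Ligation, and at 2.17, 1.98 and 0 CPM in 4-PBA. In 4-PBA 1 and 2, Lhx8 and Gbx1 were high along with Chat, whereas CVST+Ligation 2 combined 173 counts of Chat with 0 counts of both. That library was also the one with brainstem markers at 184.8 CPM. Other cells known to make acetylcholine were followed by short marker lists. Medial habenula markers (Gpr151, Pou4f1 and Tac2) summed to 4.26 to 13.1 CPM in CVST, 2.16 to 8.79 CPM in CVST+Ligation and 13.1 to 30.6 CPM in 4-PBA. The order of the 4-PBA libraries differed between these genes. In 4-PBA 1, 2 and 3, Gpr151 stood at 1.46, 7.36 and 19.7 CPM and Pou4f1 at 0.108, 7.03 and 0.800 CPM. Tac2 stood there at 11.5, 15.5 and 10.1 CPM. Markers of VIP interneurons did not move together. Vip itself stood at 19.2 to 30.3 CPM in CVST, 10.2 to 17.3 CPM in CVST+Ligation and 6.55 to 7.69 CPM in 4-PBA, while Calb2, which other neurons also express, stood at 6.74 to 49.0, 101 to 384 and 121 to 190.3 CPM. Of the cranial motor neuron list, Tbx20 was at 0 in all 9 libraries and Mnx1 at 0 in 8, whereas Prph and Calca, both also sensory neuron genes, reached 213.9 and 94.97 CPM in 4-PBA 2.

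Between 4-PBA and CVST+Ligation, Lhx8, Gbx1, Isl1 (a LIM-homeodomain factor) and Ngfr (the p75 neurotrophin receptor) were called higher and no gene of the list lower. Of all genes tested, 3.23% were called in this comparison. Ngfr reached 38.3 CPM in 4-PBA 2, against at most 8.40 CPM in the other 8 libraries. Isl1 stood at 19.0 CPM there, against 0.0827 to 5.58 CPM elsewhere. Isl1 and Ngfr are also expressed by sensory ganglion neurons, and the same library held 119.8 CPM of Scn10a and 161.8 CPM of Avil. Without 4-PBA 2, Ngfr and Gbx1 were no longer called, and the log2 difference of Ngfr went from 2.72 to 1.01. Both calls were also lost without CVST+Ligation 1, that of Ngfr without CVST+Ligation 3 or CVST 2, and that of Gbx1 without CVST+Ligation 2 or 4-PBA 1. In this comparison Lhx8 and Isl1 stayed called whichever library was left out. Isl1 and Ngfr were also called higher in 4-PBA than in CVST, where 15.4% of all genes were called. The call of Isl1 was lost without CVST 1, CVST 2, CVST 3 or 4-PBA 2 (log2 difference 0.92 to 2.39 over the 9 fits), and that of Ngfr without 4-PBA 2 (2.59 to 5.31). Slc10a4, a vesicular protein of cholinergic and monoaminergic neurons, stood at 1.41 to 4.17 CPM in CVST, 8.18 to 17.4 CPM in CVST+Ligation and 8.73 to 19.7 CPM in 4-PBA. It was called higher against CVST in both other groups (9.64% and 15.4% of all genes were called), with log2 differences of 2.07 and 2.47. Markers of midbrain dopamine neurons, which also carry Slc10a4, summed to 86.2 to 178.7 CPM in CVST, 361.5 to 550.9 CPM in CVST+Ligation and 388.7 to 480.8 CPM in 4-PBA, and their part in this difference was not tested.

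Levels of different genes were compared per length on 2 scales, since their order turned on the length used. The deposited FPKM (read fragments scaled by a gene length and by library depth) rest on 1842 bases for Ache, 1380 for Chrm1 and 1437 for Chrm4, whereas the annotation gives 4623, 6487 and 1440 exon bases. In FPKM the mean over the 9 libraries was 70.4 for Ache, 67.3 for Chrm1 and 16.5 for Chrm4. Per kilobase of annotated exon, a scale added after the data were seen, the mean was 28.0 CPM for Ache, 16.6 for Chrm4 and 14.4 for Chrm1. The RefSeq promoter of Chrm4 (chr2:91921939-91922188) lies well upstream of its annotated start at 91927249. The annotation may thus lack exon bases of Chrm4, in which case its level per exon length is too high. Ache had the highest mean on both scales, and Chrm1 and Chrm4 traded places. Chrna4, Chrnb2 and Chrna7 followed on both, with means of 10.8, 9.07 and 7.06 FPKM and of 4.39, 2.53 and 2.35 CPM per kilobase of exon. Chat, Slc18a3, Slc5a7 and Chrm2 had the 4 lowest means on both scales, at 1.44 to 4.25 FPKM and 0.636 to 1.09 CPM per kilobase of exon, in an order that differed between the scales. The ratio of Ache to Chrm1 was 0.371 to 0.743 in CVST, 0.643 to 6.04 in CVST+Ligation and 1.43 to 2.14 in 4-PBA by FPKM, and 0.694 to 1.39, 1.20 to 11.3 and 2.67 to 4.01 by exon length. On either scale the 4-PBA ratios lay above the CVST ratios, and CVST+Ligation 2 had the highest ratio of all 9 libraries.

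Ache (chr5:137287519-137294466, plus strand), which encodes acetylcholinesterase, was the 1 member whose call held under all 18 alternatives run for it. It stood at 93.6, 70.6 and 126 CPM in CVST, at 99.9, 165 and 120 CPM in CVST+Ligation, and at 145, 184 and 159 CPM in 4-PBA. All 4-PBA values lay above all CVST values, and CVST+Ligation overlapped both. Ache was 1.68-fold higher in 4-PBA than in CVST (log2 difference 0.75 ± 0.24, SE), past the unadjusted threshold but with an adjusted p of 0.185 (edgeR's quasi-likelihood test, Benjamini-Hochberg adjusted). The alternatives were 9 fits with 1 library left out and 9 other settings, and with DESeq2 the adjusted p was 0.0591. Between CVST+Ligation and CVST the log2 difference was 0.41 ± 0.24 and between 4-PBA and CVST+Ligation 0.34 ± 0.24, neither called. The first was called without CVST 3 (0.62) and the second without CVST+Ligation 2 (0.58). The genes most like Ache over the 9 libraries were Gabre (r = 0.973, 0.177 to 12.4 CPM), Zan (0.959) and Arhgap36 (0.958, 0.443 to 50.1 CPM). Anchors and chaperones of cholinesterases and receptors, a list of 9, had 0 genes called by edgeR at the unadjusted threshold in any of the 3 comparisons, in which 9.64%, 3.23% and 15.4% of all genes were called, so that few calls would be found in 9 genes at the background. They ran from Colq, the collagen tail that anchors acetylcholinesterase, at 0.108 to 3.09 CPM, to Ly6h, a modulator of nicotinic receptors, at 59.1 to 241 CPM.

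Chrna4 (chr2:181018380-181043546, minus strand) and Chrnb2 (chr3:89746195-89764632, minus strand) encode the subunits of the main high-affinity nicotinic receptor of the brain. Chrna4 stood at 18.6, 20.1 and 13.0 CPM in CVST, at 22.1, 31.9 and 25.9 CPM in CVST+Ligation, and at 24.5, 16.1 and 26.0 CPM in 4-PBA. The CVST+Ligation values lay above the CVST values without overlap, and 4-PBA overlapped both groups. Chrna4 was 1.54-fold higher in CVST+Ligation than in CVST (log2 difference 0.62 ± 0.24), called at the unadjusted threshold, with an adjusted p of 0.456 (edgeR's quasi-likelihood test, Benjamini-Hochberg adjusted). The call was lost without CVST 3 (0.44), without CVST+Ligation 2 (0.47) or without CVST+Ligation 3 (0.65). Markers of thalamic neurons, which are known for this receptor, summed to 61.0 to 71.3 CPM in CVST. Their sums were 147 to 308 CPM in CVST+Ligation and 308 to 593 CPM in 4-PBA. Against CVST, 4 of 6 were called higher in CVST+Ligation and 6 of 6 in 4-PBA. Of all genes tested, 9.64% and 15.4% were called in these comparisons. The part of the thalamic markers in the Chrna4 and Chrnb2 differences was not tested. Between 4-PBA and CVST the log2 difference of Chrna4 was 0.36 ± 0.24, called only without 4-PBA 2 (0.55).

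Chrnb2 stood at 18.8, 19.0 and 7.65 CPM in CVST, at 23.8, 27.1 and 18.1 CPM in CVST+Ligation, and at 30.9, 23.7 and 21.5 CPM in 4-PBA. CVST 3 was the lowest library by far, and the 4-PBA values lay above the CVST values. The gene was 1.67-fold higher in 4-PBA than in CVST (log2 difference 0.74 ± 0.33, adjusted p = 0.324 by edgeR's quasi-likelihood test, Benjamini-Hochberg adjusted). It was called just inside the unadjusted threshold and in only 2 of the 9 fits with 1 library left out, and without CVST 3 the log2 difference was 0.40. Chrnb2 has 8380 exon bases, more than 83.8% of genes, and long genes were low in CVST 3. Of these bases 1365 (16.3%) are also exon of Adar on the opposite strand, so that its counts are uncertain unless counting used strand. The methods name an orientation mode for the HISAT2 alignment and do not say how strand was used in counting. Adar, an RNA editing enzyme, stood at 217, 197.9 and 124 CPM in CVST, at 222, 251 and 206 CPM in CVST+Ligation, and at 256, 202 and 188 CPM in 4-PBA, with CVST 3 lowest and 4-PBA 1 highest as for Chrnb2. The part of exon length or of reads from Adar in the Chrnb2 differences was not tested.

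The pair Chrna4 and Chrnb2 had r = 0.705 (raw p = 0.0337, adjusted p = 0.0404) and rho = 0.467 (raw p = 0.213, adjusted p = 0.213) by exact permutation over the 9 libraries. Without CVST 3 and CVST+Ligation 2, the libraries farthest from the median, r was 0.0813, so that the relation rested on those 2 libraries. The ratio of Chrna4 to Chrnb2 was lowest in 4-PBA 2 and highest in CVST 3, at 0.78 and 1.95 by FPKM and at 1.13 and 2.84 by exon length. The genes closest to Chrna4 were Trp53inp1 (r = 0.94), Maml1 (0.932) and Thrap3 (0.929). Those closest to Chrnb2 were Alg11 (0.991), Slc39a9 (0.985) and Acaca (0.983).

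Chrna7 (chr7:63098692-63212569, minus strand) encodes the subunit of the homomeric, calcium-permeable nicotinic receptor. It stood at 10.4, 11 and 5.15 CPM in CVST, at 16.4, 8.14 and 10.6 CPM in CVST+Ligation, and at 14.4, 10.3 and 9.07 CPM in 4-PBA. The 3 groups overlapped and no comparison called it, with log2 differences of 0.40, -0.06 and 0.34 in the order CVST+Ligation over CVST, 4-PBA over CVST+Ligation, and 4-PBA over CVST. Its closest genes were Zfp597 (r = 0.987), Cdc27 (0.98) and Jakmip3 (0.972).

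**Figure D4:**
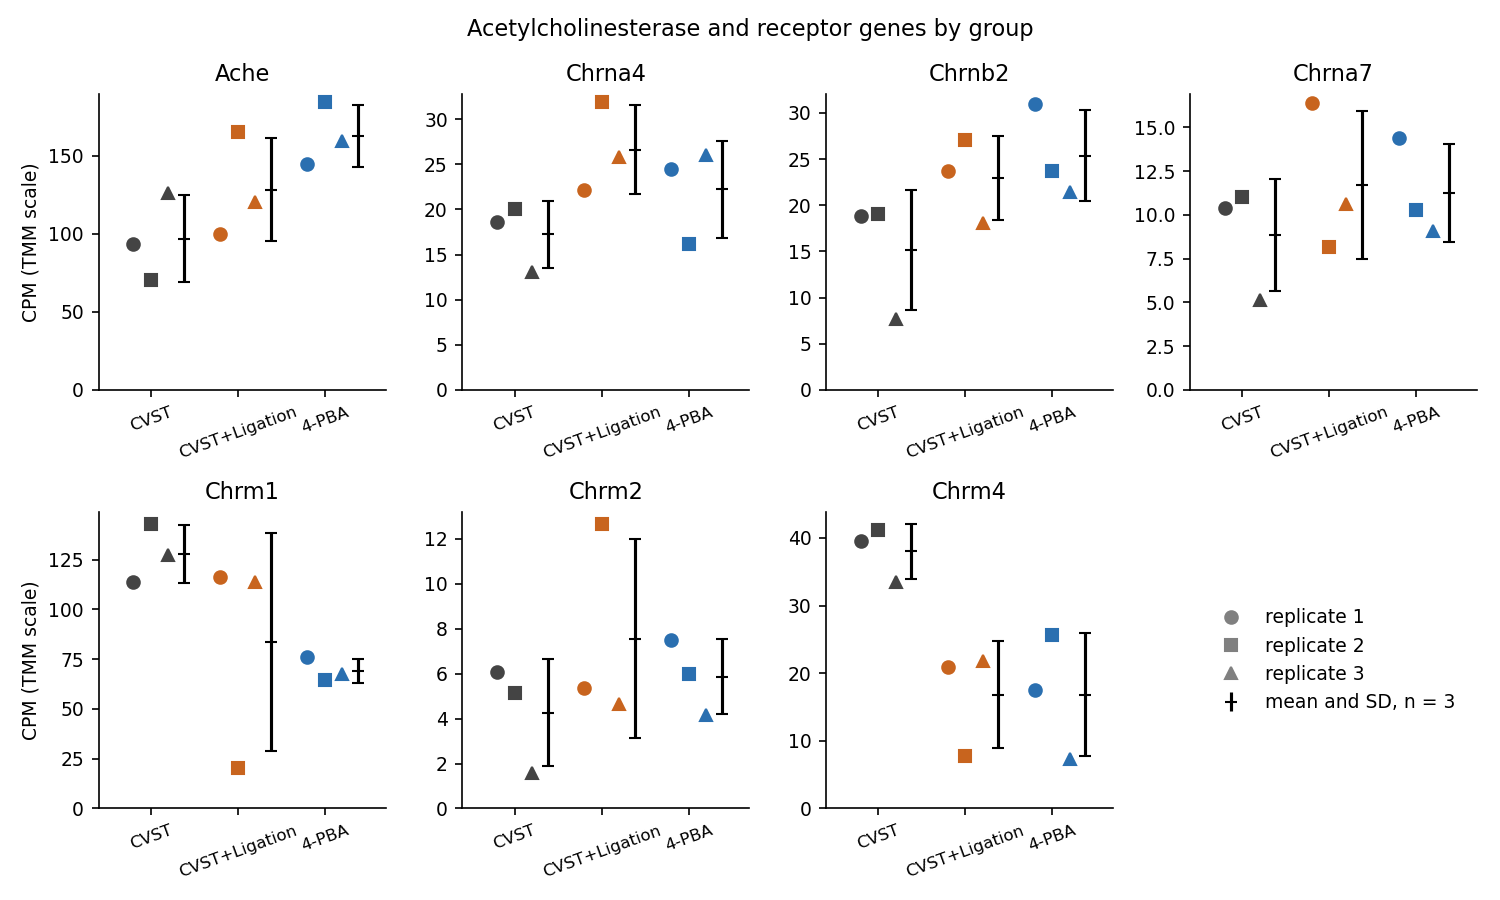
CPM (y axes, from 0) of Ache, the 3 nicotinic and the 3 muscarinic receptor genes in the 3 groups (x axes). Each point is 1 mouse, with its shape giving the replicate number, and the black bar is the mean and SD of 3 mice. CVST+Ligation 2 (the square of its column) is the lowest point for Chrm1 and the highest for Chrm2 and Chrna4, and CVST 3 (the triangle of its column) is the lowest for the 3 nicotinic genes and Chrm2.

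Chrm1 (chr19:8663789-8683587, plus strand) encodes the M1 receptor of cortical and hippocampal pyramidal neurons, which couples to phospholipase C. It stood at 114, 143 and 127 CPM in CVST, at 116, 20.5 and 114 CPM in CVST+Ligation, and at 76.0, 64.4 and 67.4 CPM in 4-PBA. The 4-PBA values were close to one another and lay below all CVST values, while CVST+Ligation 1 and 3 stood at the CVST level and CVST+Ligation 2 far below every other library. The log2 difference between 4-PBA and CVST was -0.89 ± 0.49 (adjusted p = 0.424, edgeR's quasi-likelihood test, Benjamini-Hochberg adjusted), not called in the fit of all 9 libraries. Without CVST+Ligation 2 it was -0.88 and called, as it was in the fit of CVST and 4-PBA alone. Without the same library, Chrm1 was also called lower in 4-PBA than in CVST+Ligation (-0.72), against -0.27 with it. Markers of cortical excitatory neurons summed to 694, 713 and 987 CPM in 4-PBA and 617 CPM in CVST+Ligation 2, against 1775 to 2422 CPM in the other 5 libraries. The part of those markers in the Chrm1 difference was not tested. The genes closest to Chrm1 were Kcnh3 (r = 0.981), Srr (0.979) and Ptk2b (0.978).

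Chrm4 (chr2:91927249-91928688, plus strand) encodes the M4 receptor, which inhibits adenylyl cyclase and is best known in striatal projection neurons. It stood at 39.5, 41.2 and 33.4 CPM in CVST, at 20.9, 7.73 and 21.9 CPM in CVST+Ligation, and at 17.6, 25.6 and 7.35 CPM in 4-PBA. Every CVST library was above every library of the other groups, which overlapped each other. Chrm4 was 2.26-fold lower in CVST+Ligation than in CVST (log2 difference -1.18 ± 0.46, adjusted p = 0.462) and 2.26-fold lower in 4-PBA than in CVST (-1.18 ± 0.46, adjusted p = 0.264), each called at the unadjusted threshold (edgeR's quasi-likelihood test, Benjamini-Hochberg adjusted). The first call was lost without CVST 1 (-1.15), CVST 2 (-1.11) or CVST+Ligation 2 (-0.83) and under a replicate block (-1.15), and the second without CVST 1 (-1.14), CVST 2 (-1.10), 4-PBA 1 (-1.20) or 4-PBA 3 (-0.82). These comparisons share the CVST libraries. Between 4-PBA and CVST+Ligation the log2 difference was -0.00 ± 0.46.

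The striatal marker sum followed Chrm4 in part. In CVST 1, 2 and 3 it was 1934, 1459 and 1075 CPM, in CVST+Ligation 229, 299 and 537 CPM, and in 4-PBA 537, 1361 and 269 CPM. Within 4-PBA, replicate 2 had both the highest striatal sum and the highest Chrm4, and replicate 3 the lowest of both. In CVST+Ligation the order differed, with the lowest sum in replicate 1 and the lowest Chrm4 in replicate 2, and 4-PBA 2 had a higher sum than CVST 3 but a lower Chrm4. The part of this sum in the Chrm4 difference was not tested. Chrm1 and Chrm4 had r = 0.774 (raw p = 0.00989, adjusted p = 0.0148) and rho = 0.7 (raw p = 0.0433, adjusted p = 0.0519) by exact permutation, and r = 0.881 without CVST+Ligation 2 and 4-PBA 2. The genes closest to Chrm4 were Arpp21 (r = 0.981), Npas2 (0.963) and Atl1 (0.963).

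Chrm2 (chr6:36388084-36528414, plus strand) encodes the M2 receptor, which also inhibits adenylyl cyclase and serves as an autoreceptor on cholinergic terminals. It stood at 6.08, 5.14 and 1.57 CPM in CVST, at 5.37, 12.6 and 4.66 CPM in CVST+Ligation, and at 7.48, 5.98 and 4.15 CPM in 4-PBA. CVST+Ligation 2 was highest and CVST 3 lowest, the groups overlapped and no comparison called it (log2 differences 0.81, -0.36 and 0.45). Of the summed FPKM of Chrm1, Chrm2 and Chrm4, Chrm2 made up 30.9% in CVST+Ligation 2 and 0.965% to 7.37% elsewhere, while Chrm1 made up 50.7% there and 67.8% to 85.8% elsewhere. By exon length Chrm2 made up 19.7% in that library and 0.603% to 4.91% elsewhere, and Chrm1 29.7% against 34.6% to 64.2%. These shares by exon length carry the doubt about the annotated length of Chrm4. Chat and Chrm2 had r = 0.562 (raw p = 0.11, adjusted p = 0.11) and rho = 0.733 (raw p = 0.0311, adjusted p = 0.0467) by exact permutation, and r = 0.708 without CVST 3 and CVST+Ligation 1. The genes closest to Chrm2 were Jade1 (r = 0.988), Fto (0.985) and Clcn6 (0.982).

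The rest of the pathway was read from 50 further genes, of which 45 could be tested. Of these, 5 were called higher and 2 lower between CVST+Ligation and CVST, 5 and 2 between 4-PBA and CVST+Ligation, and 7 and 6 between 4-PBA and CVST. The share of all genes called in these comparisons was 9.64%, 3.23% and 15.4%. The median log2 differences were 0.033, -0.040 and 0.017. Chrna6, a nicotinic subunit known from dopamine neurons, had the smallest adjusted p of the 45 against CVST. It stood at 0.085, 0.532 and 0.326 CPM in CVST (2, 12 and 6 counts), at 11.7, 4.43 and 7.96 CPM in CVST+Ligation, and at 16.0, 16.5 and 13.7 CPM in 4-PBA. All 3 CVST libraries held at most 12 counts, and the 6 others stood far above them. The log2 difference from CVST was 4.67 ± 0.55 in CVST+Ligation (adjusted p = 0.0411) and 5.60 ± 0.56 in 4-PBA (adjusted p = 0.0108), by edgeR's quasi-likelihood test, Benjamini-Hochberg adjusted. With 1 library left out in turn, these differences ran from 4.19 to 5.33 and from 5.14 to 6.28. Markers of midbrain dopamine neurons moved the same way: 7 of 8 were called higher in each of these comparisons. Their part in the Chrna6 difference was not tested.

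Of the 13 other nicotinic subunits 8 could be tested. In CVST+Ligation against CVST, where 9.64% of all genes were called, 3 of the 8 were called higher and none lower, namely Chrna3, Chrna6 and Chrnb4. In 4-PBA against CVST the same 3 were called higher and Chrna5 lower, and in 4-PBA against CVST+Ligation 0 were called by edgeR at the unadjusted threshold, where 15.4% and 3.23% of all genes were called. Chrna3, a subunit of ganglionic and habenular receptors, stood at 0.443 to 0.637 CPM in CVST, 1.69 to 4.23 CPM in CVST+Ligation and 2.86 to 7.81 CPM in 4-PBA. Its log2 differences from CVST were 2.29 and 3.09, called whichever library was left out (1.8 to 2.53 and 2.48 to 3.34 over those fits). Chrnb4, often paired with Chrna3, had 1, 0 and 2 counts in CVST, 8, 47 and 2 in CVST+Ligation, and 8, 12 and 82 in 4-PBA, with most of each later group in 1 library. Its call was lost without CVST 1, CVST 2 or CVST+Ligation 2 in the first comparison and without 4-PBA 3 in the second. Chrna5 stood at 3.77 to 4.94 CPM in CVST, 2.06 to 4.48 CPM in CVST+Ligation and 1.14 to 2.93 CPM in 4-PBA, and its call was lost without 4-PBA 1 or 4-PBA 2. Chrnd and Chrng, subunits of the muscle receptor, were at 0 counts in all 9 libraries, and Chrna9, Chrna10 and Chrne never exceeded 0.217 CPM.

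Among the other muscarinic receptors, Chrm5, known from dopamine neurons, stood at 0.085, 0.0887 and 1.79 CPM in CVST, at 6.57, 2.58 and 3.38 CPM in CVST+Ligation, and at 6.88, 4.80 and 2.71 CPM in 4-PBA. It was called higher against CVST in both groups (log2 differences 2.73 and 2.92), and without CVST 1 or CVST+Ligation 1 the first call was lost. CVST 3 held most of its CVST counts, and without that library the log2 differences were 5.49 and 5.68. Chrm3, coupled to phospholipase C like Chrm1, stood at 30.7 to 78.2 CPM in CVST and 23.1 to 36.3 CPM in 4-PBA, called lower there (-0.85), but not without CVST 1, CVST 2 or 4-PBA 2. Bche, which encodes butyrylcholinesterase, ran from 0.381 to 1.77 CPM and was not called.

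Of 19 genes of muscarinic receptor signalling, 2 were called lower in CVST+Ligation against CVST (Adcy5 and Rgs4), 2 in 4-PBA against CVST+Ligation (Itpr1 and Prkcb) and 4 in 4-PBA against CVST (Gnao1, Itpr1, Prkcb and Kcnq5), and none higher. The share of all genes called was 9.64%, 3.23% and 15.4%, so that the first count is near the background. With 1 library left out in turn, the call against CVST was lost in 4 of 9 fits for Gnao1, in 5 for Itpr1 (log2 difference -1.72 to -1.08) and in 4 for Kcnq5 (-1.39 to -0.85), which included for Itpr1 and Kcnq5 the fits without CVST 1, CVST 2, 4-PBA 2 or 4-PBA 3. Rgs4, which shortens G-protein signals, stood at 245 to 602 CPM in CVST and 81.4 to 224 CPM in CVST+Ligation (log2 difference -1.43), called whichever library was left out. Adcy5, the main striatal adenylyl cyclase, stood at 187 to 459 CPM in CVST, 132 to 176 CPM in CVST+Ligation and 128 to 325 CPM in 4-PBA, and its call was lost without CVST 1 or CVST+Ligation 2. Prkcb, a protein kinase C, stood at 291 to 467 CPM in CVST and 216 to 259 CPM in 4-PBA (-0.69), called whichever library was left out. Its call against CVST+Ligation (-0.44) was lost in 4 of 9 such fits, without CVST+Ligation 1, CVST+Ligation 2, 4-PBA 1 or 4-PBA 2. Itpr1, the calcium channel gated by inositol trisphosphate, is also abundant in Purkinje cells and stood at 1622 CPM in CVST+Ligation 2, the library with cerebellar markers, against 258 to 1065 CPM elsewhere. Without that library its log2 difference between 4-PBA and CVST+Ligation went from -1.45 to -0.62 and was not called, nor was it without 4-PBA 3.

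**Figure D5:**
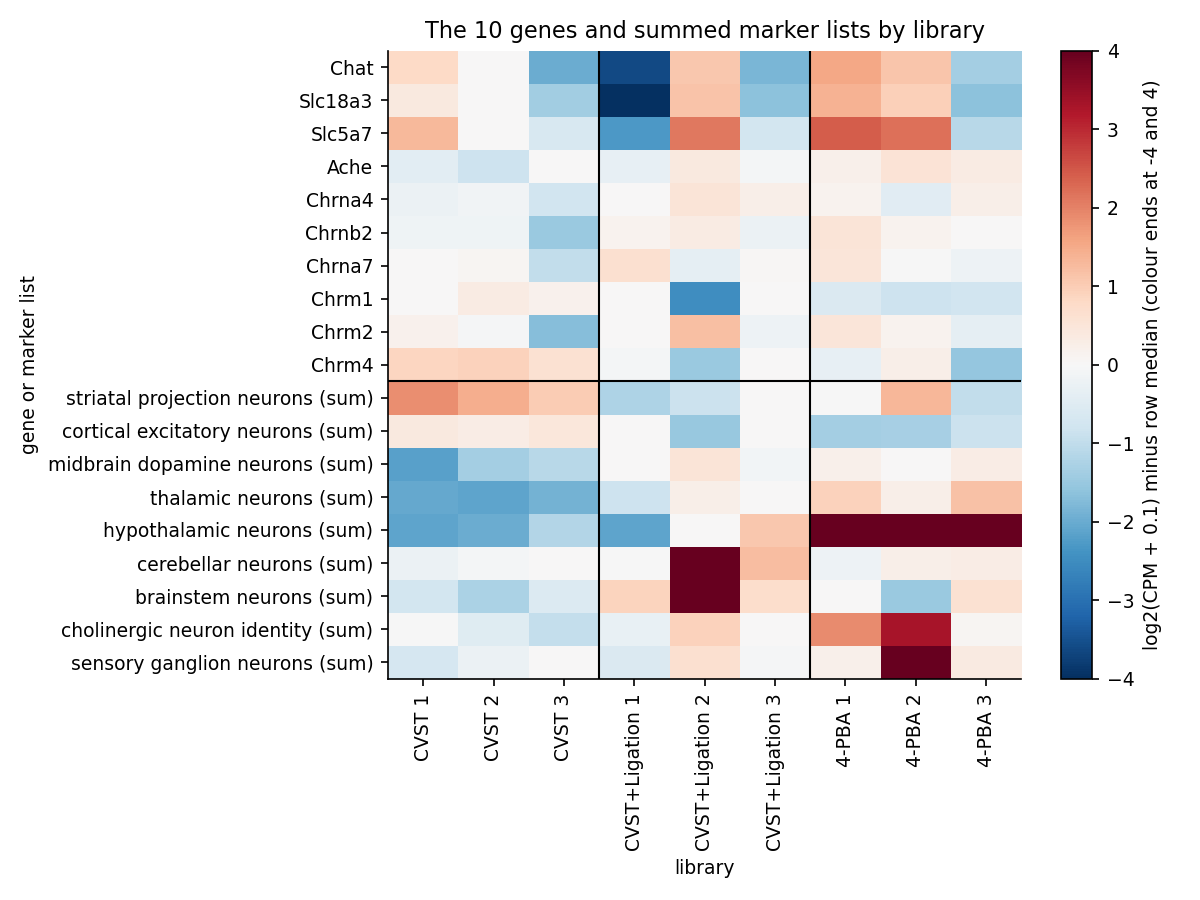
Level of the 10 genes (above the line) and of summed marker lists (below it) in each of the 9 libraries (x axis), as log2(CPM + 0.1) minus the row's median, red for higher and blue for lower, with the colour scale ending at -4 and 4. Chat, Slc18a3 and Slc5a7 change within every group, Chrm4 is highest in the CVST columns, and the cerebellar and brainstem sums stand out in CVST+Ligation 2.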

How the data were processed

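RNA sequencing of brain from 9 mice in 3 groups of 3 was analysed. Per the study's methods and the submitters' processing notes, the authors extracted total RNA with TRIzol, sequenced paired ends, trimmed with fastp, aligned with HISAT2 to GRCm38 (mm10), assembled with StringTie and quantified with RSEM. The authors deposited whole-number counts per gene symbol and a second table of FPKM, which the methods call TPM: its columns sum to 780195 to 879696, and 17446 genes gave 1 length in all 9 libraries. HISAT2 was run in what the methods call orientation mode, and strand handling in counting is not given in the sources used here.

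Groups were taken from the labels. Counts were scaled by TMM and genes were kept by filterByExpr (14746 of 20731). The 3 groups entered 1 edgeR quasi-likelihood fit (edgeR 4.0.16, R 4.3.3) with 3 contrasts, and a gene was called at an unadjusted p below 0.05, with Benjamini-Hochberg adjustment over all genes tested also given. A contrast's SE was taken from its F statistic. The 6 gene pairs were tested by exact permutation of all pairings on log2 CPM (prior count 0.5). P-values measure the spread between these mice. The common biological coefficient of variation was 0.287. Intervals from 3 counts cover counting error only. In simulated data for CVST+Ligation against CVST (14600 genes), the fit called 84.9% of 2-fold and 100% of 4-fold changes. In a contrast without changes it called 4.63%. Detection of such changes in Chat, Slc18a3 and Slc5a7 was not tested. Their coefficients of variation over the 9 libraries were 87.3% to 96.8%, against 21.8% for the median gene.

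Named are the 10 members, for each the 3 genes with the highest Pearson r, and pathway genes called in a contrast or highest or lowest of their list. Members and lists were chosen with earlier results of these data known, and the sensory ganglion list and Adar after their values here were seen. 1 item of the pathway lists is not reported here. Alternatives were DESeq2 1.42.0 and its size factors, total counts, 2 other filters (1 count, and 10 counts in every library), fits of only the 2 groups compared, a replicate block, limma 3.58.1 on log2 FPKM with a pseudocount of 1 or 0.1, and fits without each library in turn. Promoters were matched by symbol to RefSeq (GRCm38.p6) for 9 of the 10 genes, all but Chrm1. Levels per exon length, chosen after seeing the data, were TMM-scaled CPM over the annotated exon bases of a gene. Exon lengths came from GENCODE M21 for 14403 genes (97.7% of those tested).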

Additional observations from a re-analysis of the deposited data

How the results depend on the processing

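Of 531 member log2 differences under an alternative, 468 kept their direction and side of the unadjusted threshold, 19 lost the call, 11 gained it and 33 changed sign. None of the differences that changed sign was called with all libraries. Slc5a7 in CVST+Ligation over CVST was -0.025 with limma on log2(FPKM + 1) and -0.41 on log2(FPKM + 0.1), and the cause was not tested. In 4-PBA over CVST+Ligation, Chrm4 was 0.0047 with DESeq2 size factors, 0.032 with total counts, 0.0064 with DESeq2, 0.0053 under the filter of 10 counts, 0.0012 with only the 2 groups compared, and 0.0034 and 0.0013 with limma at either pseudocount. The same limma fits gave 0.0014 and 0.0046 for Chrna7 and 0.11 and 0.12 for Chrm1.

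With 1 library left out, log2 differences of CVST+Ligation over CVST ran from -2.64 to 0.38 for Chat, -2.66 to 0.47 for Slc18a3 and -1.92 to 1.08 for Slc5a7, each lowest without CVST+Ligation 2. Those of 4-PBA over CVST+Ligation ran from -0.44 to 0.36 for Chrm4, -0.26 to 0.27 for Chrna7, -0.72 to 0.059 for Chrm1, -0.62 to 0.23 for Chrm2 and -0.0086 to 0.29 for Chrnb2. Members called ran from 1 to 2 in CVST+Ligation over CVST, 0 to 5 in 4-PBA over CVST+Ligation and 1 to 3 in 4-PBA over CVST. The 5 came without CVST+Ligation 2. A single call was left in the first comparison without CVST 1, CVST 2, CVST+Ligation 2 or CVST+Ligation 3, and in the last without 4-PBA 1 or 4-PBA 3. Pathway genes called ran from 4 to 13 (fewest without CVST 1, most without CVST 3), 3 to 9 (3 without 4-PBA 2, 4 without CVST+Ligation 1) and 7 to 18 (7 without 4-PBA 2, 8 without CVST 1). All genes called in 4-PBA over CVST+Ligation ran from 256 without 4-PBA 2 to 1497 without CVST+Ligation 2, against 476 with all libraries.

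Under a filter of 10 counts in each library, 4, 2 and 8 pathway genes were called in the 3 comparisons, against 7, 7 and 13, since fewer genes were tested. Chat, Slc18a3 and Slc5a7 could not be fitted under that filter. In 4-PBA over CVST+Ligation limma called 4 pathway genes at a pseudocount of 1 and 3 at 0.1, and the cause was not tested. The numbers were not taken to pair mice, since nothing in the labels ties them and the deviations of same-numbered libraries correlated at r from -0.0521 to 0.314, not all above 0.1. In the data, 7 of 9 libraries correlated best with their own number, a hint of pairing that the design does not give. A replicate block gave 2, 0 and 3 members, 7, 4 and 11 pathway genes and 1765, 521 and 2644 of all genes called. With it Chrnb2 was called in CVST+Ligation over CVST (0.67) and Chrm4 was not (-1.15). Of the 6 pairs, Chat with Chrm2 passed the threshold for r on log2(FPKM + 1), with r = 0.671. Slc18a3 had 0 to 100 counts per library, so that its values also carry counting error.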
